A study of Mus musculus with 12 samples.

Results

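The genes described here are 10 mouse genes for carriers of glucose, lactate and amino acids at the plasma membrane: Slc2a1, Slc2a3, Slc16a1, Slc16a3, Slc38a1, Slc38a2, Slc1a5, Slc7a5, Slc3a2 and Slc7a11. Slc3a2 encodes a heavy chain that pairs with amino acid exchangers, and is counted as a carrier here. The genes are 10 of 21887 protein-coding genes of the RefSeq table on chromosomes 1 to 19, X and Y. Binding of USF2 was taken from 4 peak lists, each from 1 chromatin immunoprecipitation sequencing (ChIP-seq) library of wild-type mouse embryonic fibroblasts (MEFs), cells grown from mouse embryos. Libraries normal 1 and normal 2 came from cells in normal culture, and starved 1 and starved 2 from cells under glucose starvation. All 4 share the wild-type genotype and the USF2 antibody. The length of starvation and whether the libraries of a condition came from separate cultures are not given in the sources used here, so any spread between them may be technical. The inputs and the H3K27ac libraries of the 12 samples are not analysed here. Peak lists hold no expression values, so the cell type was not checked against marker genes.

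USF2 is a transcription factor that binds the E-box, a short DNA motif. Cells take up glucose through facilitative carriers, release or take up lactate together with protons through monocarboxylate transporters, and import amino acids by sodium-coupled uptake or by exchange against amino acids already inside. Cultured fibroblasts rely on glucose and glutamine as fuels, and a lack of either is known to change the amount of several of these carriers. No measure of carrier amount or transport is part of these lists.

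A gene was counted as called in a list when the summit of a peak, its highest point, lay within 1000 bp of either end of the gene or inside it. Of the 10 carriers, 2 had a call, Slc38a2 and Slc16a1, and both were called in both starved lists and in neither normal list. In the 20 gene-list pairs of normal culture there was no call, and in the 20 of starvation there were 4. By the same rule 5.46% and 6.5% of all protein-coding genes were called in normal 1 and normal 2, and 3.23% and 4.1% in starved 1 and starved 2. Both normal lists called 4.08% of all genes, both starved lists 2.48%, and 0.946% were called in both starved lists and no normal list. The 10 genes were selected on their function and with the USF2 calls of these 4 lists in view, those at Slc38a2 and Slc16a1 included, so the counts are a description and were not tested. A gene without a call had no peak past the caller's threshold, and weaker binding there was not measured.

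**Figure D1:**
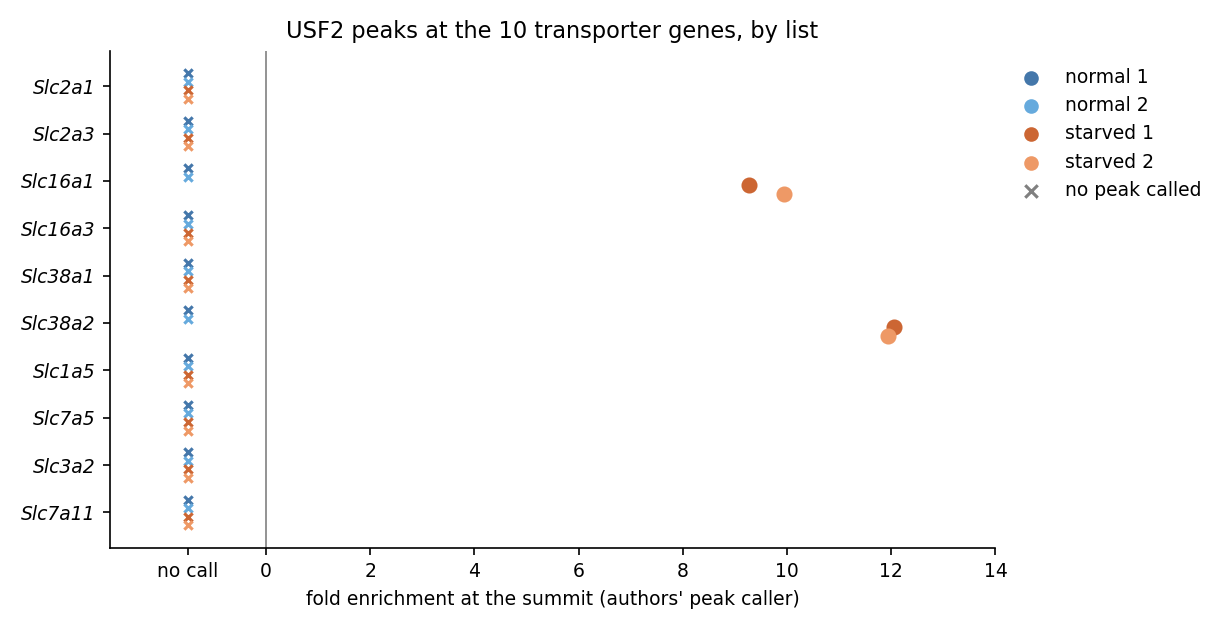
Fold enrichment (horizontal axis, a ratio from the authors' peak caller) of the peaks at the 10 carrier genes (rows), with 1 mark for each of the 4 lists. Circles are called peaks, and crosses in the column left of 0 mark lists with no call; only Slc16a1 and Slc38a2 have circles, all 4 of them from starved lists.

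The lists of the conditions were not made alike. The narrowest peak was 152 bp in the normal and 306 bp in the starved lists. The lowest local background, recovered from fold enrichment and p-value, was 0.0979 reads in each normal list and 0.131 and 0.133 in starved 1 and 2. Divided by the narrowest peak width of its list, taken as the calling width, it was 644.0 and 644.1 reads per Mb in normal 1 and 2. In starved 1 and 2 it was 428.4 and 434.1 reads per Mb. The lists held 1645, 2124, 825 and 1186 peaks in that order. Calling width and, by background per Mb, depth moved with the condition. Their part in where carriers are called cannot be told apart from that of starvation.

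Slc2a1 and Slc2a3 encode the facilitative glucose carriers GLUT1 and GLUT3. Neither had a call in any of the 4 lists. Slc2a1 lies on chromosome 4 (119108745 to 119137330 in GRCm38), and the nearest summits were 433.9 kb away in normal 1 and 157.3 kb in normal 2. In both starved lists the nearest summit to Slc2a1 was 1221 kb away, at the proton pump subunit gene Atp6v0b. Slc2a3 on chromosome 6 (122727809 to 122802363) stood farthest from any USF2 peak among the 10 genes, with its nearest summit 1410 kb from the gene, in normal 2. The other lists had their nearest summit between 1940 and 2553 kb from Slc2a3. Over all protein-coding genes the median distance to the nearest summit of any list was 158.8 kb. By that measure Slc2a1 stood at a typical distance and Slc2a3 beyond it. List by list, over genes on chromosomes with a peak, the medians were 387.9 and 301.0 kb in normal 1 and 2. In starved 1 and 2 they were 731.9 and 538.2 kb, and Slc2a1 was nearer than the median in normal 2 alone.

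Slc16a1 encodes MCT1, which carries lactate, pyruvate and ketone bodies with a proton in either direction, and Slc16a3 encodes MCT4, known for lactate release from cells with high glycolysis. At Slc16a1 (chromosome 3, 104638664 to 104658462) starved 1 had a peak from 104638189 to 104638647 and starved 2 one from 104638223 to 104638650. Fold enrichment was 9.27 in starved 1 and 9.95 in starved 2, and −log10 q was 10.5 and 11.7. By −log10 q the Slc16a1 peak ranked 144 of 825 peaks in starved 1 and 136 of 1186 in starved 2.

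Behind each Slc16a1 peak stood a recovered pileup of 14 reads at the summit (95% exact Poisson interval 7.65 to 23.5, which covers counting error only), over a local background of 0.617 reads in starved 1 and 0.508 in starved 2. Both peaks lay upstream of the annotated start of the gene, with summits 290 bp and 233 bp before it. The summits were 57 bp apart, and the 425 bp that the peaks share are 92.6% of the starved 1 peak and 99.3% of the starved 2 peak. The starts and the ends of the 2 peaks were not identical. No other annotated gene lay within 1000 bp of these summits. In the normal lists the nearest summit to Slc16a1 was 1259 kb away in normal 1 and 795.2 kb away in normal 2.

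The RefSeq promoter window of Slc16a1, 250 bases before to 50 after the start in GRCm38.p6, overlaps both peaks. It is the sequence on which the Slc16a1 call can be read, and its part inside the starved region is chr3:104638414-104638650 on the plus strand, printed with the E-box in capitals:
Slc16a1: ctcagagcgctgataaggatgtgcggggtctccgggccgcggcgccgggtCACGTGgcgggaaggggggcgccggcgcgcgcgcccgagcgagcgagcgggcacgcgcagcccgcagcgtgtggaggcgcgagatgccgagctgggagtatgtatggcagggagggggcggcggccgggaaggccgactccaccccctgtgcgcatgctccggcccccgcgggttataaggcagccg

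The window held 1 match to CACGTG, at 104638464 to 104638469, which starts 200 bp before the start site. The match lies inside both peaks, 33 bp past the summit of starved 2 and 90 bp past that of starved 1. Of all 32851 promoter windows of this length, 7.15% held CACGTG, searched on both strands (the motif reads the same on either). Among windows that held a summit, the share was 69.1% of 379 in normal 1, 64.1% of 407 in normal 2, 87.0% of 292 in starved 1 and 85.5% of 332 in starved 2. A summit of both starved lists and of no normal list fell in 82 windows, and 72 of them (87.8%) held CACGTG. For windows with a summit of all 4 lists the count was 138 of 150 (92%). Slc16a1 itself is among the windows of starved 2 alone, since its starved 1 summit lies 40 bp outside the window. A match is a description of the letters and does not show where USF2 was bound.

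**Figure D2:**
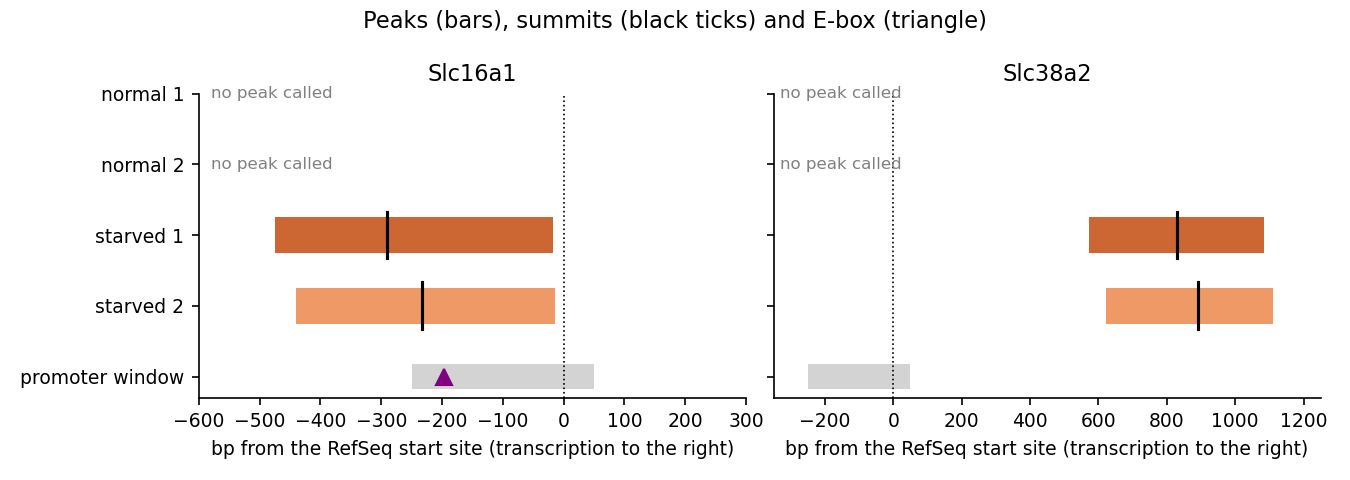
Peaks at Slc16a1 and Slc38a2 along the distance in bp from the RefSeq start site (horizontal axis, transcription to the right) for each of the 4 lists; bars are peaks, black ticks their summits, grey bars the promoter window of 300 bases and the triangle its E-box. The Slc16a1 peaks cover most of the part upstream of the start and the E-box, while the Slc38a2 peaks begin over 500 bp inside the gene, outside its promoter window.

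Slc16a3 (chromosome 11, 120948484 to 120959000) had no call in any list. Its nearest summits were the closest of any uncalled carrier, 15516 bp before the annotated gene start in normal 1, 15438 bp in starved 1 and 15556 bp in starved 2, while that of normal 2 was 152.0 kb away. The summits of the 3 lists lay within 1000 bp of, or inside, the genes Ccdc57 and A430102A20Rik. No summit lay near the limit of 1000 bp on its outer side, since those near Slc16a3 were the next beyond it. On its inner side the summits closest to it were those of Slc38a2 at 830 and 892 bp from a gene end, which also lie inside the gene and are called at any limit. The promoter window of Slc16a3 held no match to CACGTG.

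Slc38a1 and Slc38a2 encode SNAT1 and SNAT2, sodium-coupled carriers of small neutral amino acids such as glutamine and alanine, and Slc38a2 is known as a gene that amino acid shortage induces. Slc1a5 encodes ASCT2, a sodium-dependent exchanger and a main route of glutamine uptake. Slc38a2 (chromosome 15, 96687392 to 96699728, minus strand) had a peak from 96698643 to 96699155 in starved 1 and one from 96698618 to 96699105 in starved 2. Fold enrichment at Slc38a2 was 12.1 in starved 1 and 11.9 in starved 2, with −log10 q of 17.4 and 15.99. It ranked 66 of 825 and 75 of 1186, ahead of Slc16a1 in both starved lists.

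The recovered pileup at the Slc38a2 summit was 20 reads in starved 1 (95% exact Poisson interval 12.2 to 30.9) and 17 in starved 2 (9.90 to 27.2), over local backgrounds of 0.741 and 0.508 reads. These intervals overlap each other and that of Slc16a1, so the order of the 2 genes in reads was not resolved at this depth. The Slc38a2 summits lay inside the gene, 830 bp and 892 bp downstream of its start site, and were 62 bp apart. The shared stretch of 463 bp is 90.3% of the starved 1 peak and 94.9% of the starved 2 peak. No other annotated gene lay within 1000 bp. The RefSeq gene table used here gives no exons, so whether the summits are exonic or intronic is not given. In both normal lists the nearest summit was 112.4 kb from Slc38a2.

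The 2 called carriers thus differed in where the peak stood, upstream of the start at Slc16a1 and downstream of it at Slc38a2. The promoter window of Slc38a2 (chromosome 15, 96699679 to 96699978) does not overlap the peaks, which begin 573 bp and 623 bp downstream of the start site. It held no CACGTG and 1 match to the looser pattern CANNTG, which 72.3% of all windows held and of which CACGTG is 1 form. The sequence under the Slc38a2 peaks was not used here.

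Slc38a1 (chromosome 15, 96571418 to 96643438) is the neighbour of Slc38a2 on the same chromosome and had no call. The nearest summit to Slc38a1 in starved 1 was the Slc38a2 one, 55.5 kb from Slc38a1 on the side of higher coordinates. In starved 2 it was a weak peak 39.5 kb away, with a fold enrichment of 4.41 and a pileup of 4 reads. In the normal lists it was 168.7 kb away. Slc1a5 (chromosome 7, 16781334 to 16798274) had no call, and the nearest summit lay 393.4 kb away in each of the 4 lists, at Sae1. Of the neighbouring SNAT genes, then, 1 had a call and the other none.

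Slc7a5 encodes LAT1, the exchanger for large neutral amino acids such as leucine, and Slc3a2 encodes CD98hc, the heavy chain that brings LAT1 and other light chains to the membrane. Slc7a11 encodes xCT, which pairs with the same heavy chain and takes up cystine in exchange for glutamate. None of these 3 genes had a call. Slc7a5 (chromosome 8, 121881146 to 121907686) had the same nearest site in all 4 lists, at the gene Banp 42.3 to 42.4 kb away on the side of higher coordinates, where normal 1 and 2 had fold enrichments of 7.36 and 5.23 and starved 1 and 2 had 5.19 and 5.44. Slc3a2 (chromosome 19, 8706882 to 8723369) had its nearest summit 48.5 kb away in both normal lists, at 9830166K06Rik, and 63.1 and 63.0 kb away in starved 1 and 2, at Taf6l. Slc7a11 (chromosome 3, 50364936 to 50499087) had its nearest summit 569.0 kb away, in normal 1, and up to 6691 kb away in normal 2.

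The amino acid response element, the site of ATF4 and its partners, was searched in the promoter windows alone. Sequence outside them, that under the Slc38a2 peaks included, was not searched. A carrier without a match may therefore hold the element elsewhere. The core of the element was searched as TGATGNAA on both strands, which 3.97% of all promoter windows held. Among the carriers with a window, Slc7a11 alone held it, with 2 matches that start 66 and 47 bp before the start site of the window. That start site lies 55.5 kb inside the annotated span of Slc7a11, so it is not the gene end of the calling rule, although a summit there would count as inside the gene. The stretch chr3:50443643-50443689 is printed from the minus strand with both matches in capitals, the second being the core on the other strand:
Slc7a11: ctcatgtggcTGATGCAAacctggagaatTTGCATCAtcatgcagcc

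The promoter table matched 6 of the 10 carriers: Slc2a1, Slc16a1, Slc16a3, Slc38a2, Slc3a2 and Slc7a11. Of these 6 windows, only that of Slc16a1 held CACGTG, and none held the flanked form TCACGTGA, which contains CACGTG and was found in 0.974% of all windows. Slc38a2 and Slc7a11 each held 1 match to CANNTG beside it, and the other 3 windows held none. The GC content of the windows was 73.7% at Slc16a1, 73.3% at Slc16a3, 73% at Slc38a2, 65.3% at Slc2a1, 56% at Slc3a2 and 44.7% at Slc7a11, against a median of 52.7% over all windows. A called and an uncalled lactate carrier therefore had nearly the same GC content. The start sites of the Slc3a2 and Slc16a3 windows likewise lie inside the annotated spans, by 9.47 kb and 583 bp. Slc1a5, Slc2a3, Slc38a1 and Slc7a5 were not matched.

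**Figure D3:**
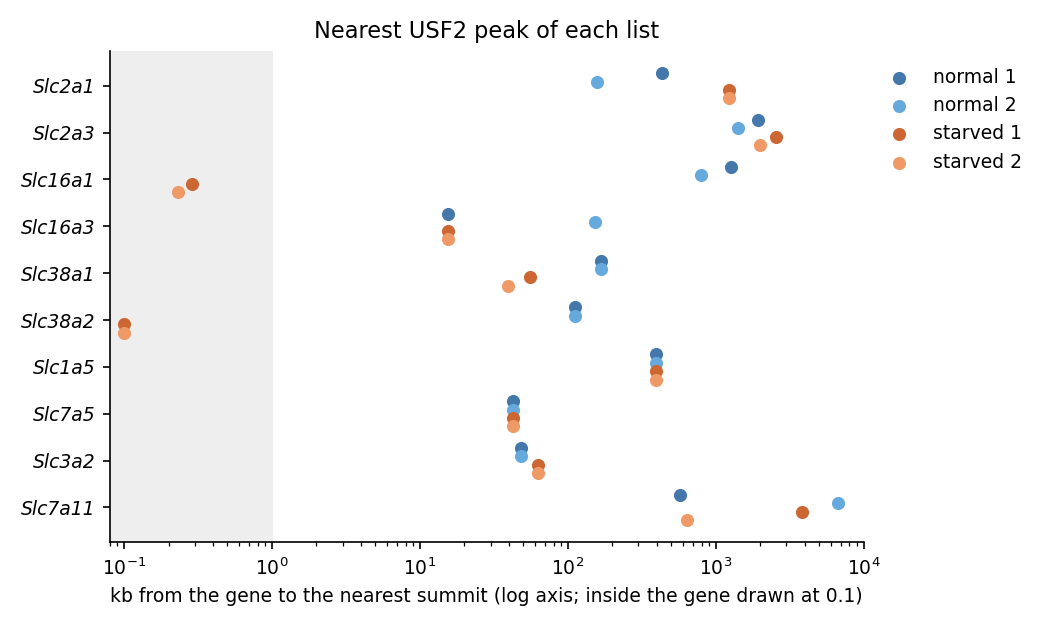
Distance in kb (log axis) from each carrier gene to the nearest summit of each of the 4 lists, with the shaded range up to 1 kb around gene ends and summits inside a gene drawn at 0.1 kb. Only the starved marks of Slc16a1 and Slc38a2 lie in the shaded range, and the uncalled genes range from 15.4 kb at Slc16a3 to 1410 kb at Slc2a3 for their nearest mark.

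Taken by the nearest summit of any list, the 8 uncalled carriers fell into 4 within 50 kb (Slc16a3, Slc38a1, Slc7a5 and Slc3a2) and 4 with none within 100 kb (Slc2a1, Slc1a5, Slc7a11 and Slc2a3). The median distance over the 10 carriers was 45.4 kb, and that over all protein-coding genes 158.8 kb. Beyond 50 kb were 4 of the 10 carriers and 72.2% of all genes. These distances are a description, since the 2 called carriers enter them by the choice of genes.

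Among the peaks of the starved lists the called carriers stood in the upper part. Of the 366 peaks of starved 1 at gene ends, 58 had a higher −log10 q than Slc38a2 and 122 a higher one than Slc16a1. Of the 417 of starved 2 these numbers were 63 and 112. Regions called in both starved lists and in neither normal list numbered 275, of which 106 were at gene ends. Ordered by the smaller of the 2 fold enrichments, Slc38a2 was number 4 and Slc16a1 number 9 of the 106, whose median was 5.94 and whose range was 3.52 to 13.5. These places are a description, since both genes were chosen with these calls in view.

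**Figure D4:**
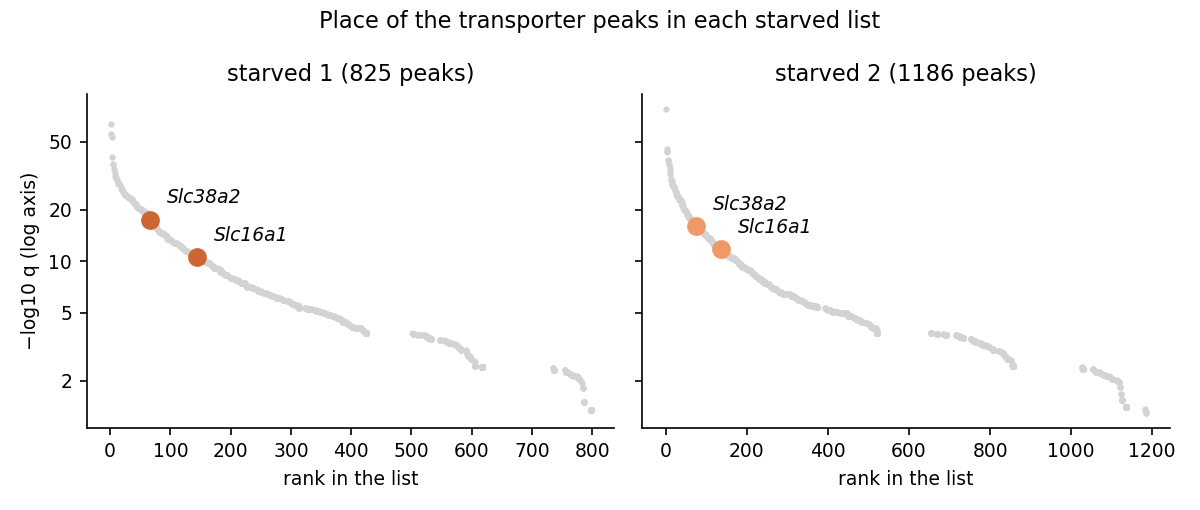
−log10 q (log axis) against rank for all peaks of starved 1 and starved 2 (grey; gaps are tied peaks), with the peaks at Slc38a2 and Slc16a1 as large circles. Both genes sit in the upper part of both lists, Slc38a2 at ranks 66 and 75 and Slc16a1 at ranks 144 and 136.

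Other gene-end regions with the same calls (both starved lists, no normal list) and the nearest fold enrichments were named by their Euclidean distance on the log2 scale over the 2 starved lists. Closest to Slc16a1 were Ogdhl, a relative of a citric acid cycle enzyme (distance 0.08; fold enrichment 9.73 and 9.71), B3gat3, an enzyme of proteoglycan synthesis (0.15; 8.53 and 10.6), and Napa, which recycles membrane fusion complexes (0.15; 10.3 and 9.80). Closest to Slc38a2 were the region shared by the Polycomb gene Cbx6 and by Npcd (0.20; 12.1 and 13.8), Rbm15b, an RNA-binding protein gene (0.24; 10.6 and 10.8), and Mapre1, a microtubule end-binding protein gene (0.27; 14.6 and 12.03). Of the 6 of these genes with a promoter window, 5 held CACGTG, the exception being B3gat3.

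To set the E-box of Slc16a1 beside others, 12 bases on each side are printed from the strand of transcription, with CACGTG in capitals. They are shown for some of the named genes with the same calls and for a pair of lysosomal carrier genes called in normal lists too:
Slc16a1: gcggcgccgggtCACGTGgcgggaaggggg
Napa: cttatttggtgtCACGTGgcaatgcgcttg
Rbm15b: ttgccaagatgtCACGTGgtgcggggccac
Cbx6: ggcccggagcatCACGTGacggcccgcagc
Mapre1: gtcgcaactgacCACGTGcccaacaggctt
Mfsd1: gagcccggccacCACGTGagcaaccgttca
Slc38a7: gtgattcaggctCACGTGttacttgagtcg

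Slc16a1 and Napa share the 10 letters GTCACGTGGC, which 101 of the 32851 promoter windows (0.307%) held on either strand, and the other 5 windows shown did not. Ogdhl and the lysosomal carrier gene Slc36a1 also held CACGTG but are not printed, and in both it is followed by AC, not by the GC of Slc16a1 and Napa. This comparison was chosen after the sequences were seen.

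The wider carrier families were counted by the same rule. The 62 other carriers of the plasma membrane fixed for this description comprise 12 glucose carriers, 16 monocarboxylate carriers and their chaperones, and 34 amino acid carriers. None of the 62 had a call at a gene end in any list, against 4.05% of all genes, a share to which a count of 0 is near. Inside the gene, 5 of the 62 had a call in at least 1 list (8.06%, against 10.5% of all genes for a call at an end or inside), each in a single normal list. They were Slc16a10 (fold enrichment 4.42), Slc1a4 (4.51) and Slc7a13 (5.47) in normal 1, and Slc1a6 (5.28) and Slc7a7 (5.46) in normal 2, with summits at least 2544 bp from a gene end. No starved list called any of the 62, against 3.23% and 4.1% of all genes in starved 1 and starved 2, and 2.48% in both, shares to which a count of 0 is near. The calls at Slc38a2 and Slc16a1 were the only ones of the 72 plasma membrane carriers in a starved list, and the only ones at a gene end. Beside 2.48% of all genes in both starved lists and 4.05% at a gene end in any list, 2 of 72 is near the background. These 2 genes were also chosen with their calls in view.

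Carriers of the lysosome, which return amino acids and other nutrients from that organelle to the cytosol, had more calls. Of 13, both normal lists called 5 at a gene end, against 2.19% of all genes, and both starved lists called 2, against 1.78%. Slc36a1, a proton-coupled amino acid carrier, and Mfsd1 were called in all 4 lists. Mfsd1 had 15.2 in normal 1, 17.5 in normal 2, 15.4 in starved 1 and 11.01 in starved 2 as fold enrichment. Slc38a7, which encodes a lysosomal glutamine carrier of the SNAT family, had 8.46, 5.94 and 5.48 in normal 1, normal 2 and starved 2. Ctns, the cystine carrier, and Spns1, a lysophospholipid carrier with 10.5 and 11.4, were called in the normal lists alone. None of the 13 was called in both starved lists and no normal list, as were 0.946% of all genes, so this count is near the background. The difference between the lists of carriers was not tested.

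**Figure D5:**
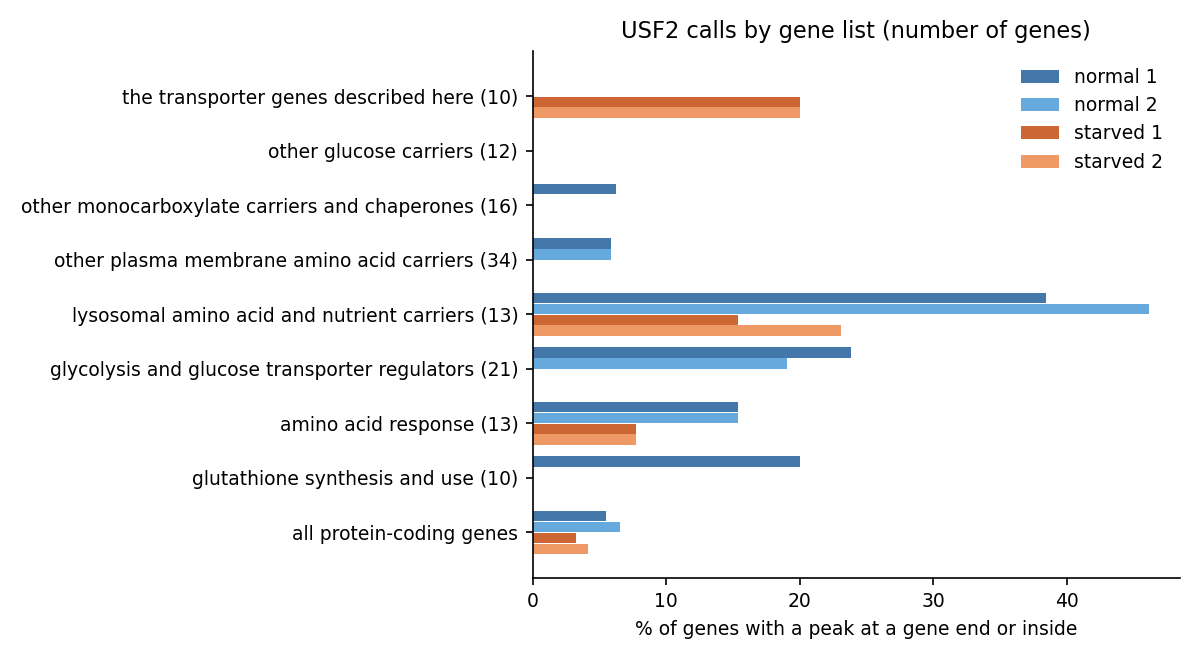
Percent of genes (horizontal axis) with a peak at a gene end or inside, for each gene list (rows, number of genes in brackets) and for all protein-coding genes, with 1 bar per peak list. The carriers described here have starved bars of 20% alone, the 62 other plasma membrane carriers have normal bars or none, and lysosomal carriers have bars in all 4 lists.

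Pathways around the carriers are given beside the share of all genes. Of 21 genes of glycolysis and of regulators of glucose carriers, none had a call at a gene end, against 4.05% of all genes. Inside the gene, 4 had a call in both normal lists and no starved list (19.0%, against 2.33% of all genes for a call at an end or inside). They were the hexokinase genes Hk1 and Hk2, Gpi1 and Gapdh, with fold enrichments from 4.39 to 6.89. Their −log10 q ran from 1.85 (Hk2, normal 2) to 5.56 (Gapdh, normal 1), where the lowest of any peak was 1.38 in normal 1 and 1.33 in normal 2. Outside the rule, 4666 to 4837 bp past the far end of Gpi1 and at Pdcd2l, all 4 lists had a peak. Fold enrichment there was 4.63 and 5.40 in normal 1 and 2, and 8.03 and 10.2 in starved 1 and 2. Of 13 amino acid response genes 2 were called at a gene end, both of them in both normal lists (15.4%, against 2.19% of all genes): Atf4, the main transcription factor of this response, with 13.6, 13.04, 7.29 and 9.13 in normal 1, normal 2, starved 1 and starved 2, and Chac1, which degrades glutathione, with 7.36 and 6.31 in the normal lists. The other 11, Asns, Trib3 and Ddit3 among them, had no call. Of 10 genes listed under glutathione synthesis and use, Txnrd1 of the thioredoxin system among them, none was called at a gene end, against 4.05% of all genes. Gclc and Txnrd1 had a call inside the gene in normal 1 alone (3.64 and 4.37), which makes 2 of 10 called in any list at an end or inside, against 10.5% of all genes.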

How the data were processed

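USF2 was profiled by ChIP-seq in 4 libraries, and the deposited files are 1 MACS2 peak list per library, so replicates were not pooled. Bowtie2 (2.5.1), MACS2 (2.2.7.1), deepTools (3.5.1) and the build GRCm38 are given in the submitters' processing notes; parameters and the control used in peak calling are not given in the sources used here. The deposited fold enrichment is a ratio of pileup to local background by the authors' peak caller. That caller also gave the significance values, deposited as −log10 of p and of q, and the deposited score, which is −log10 q times 10 without its decimals. They were used within a list only. Where the text orders regions by fold enrichments of 2 lists, this ordering compares no binding between them.

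Genes, their ends and promoter windows came from RefSeq tables of GRCm38.p6, and all 129 listed genes were matched. Pileup k and background were recovered by setting the fold to (k + 1)/(background + 1) and taking the whole number k with the Poisson tail nearest to −log10 p, with an error of at most 0.000265 in any peak. Gene assignment and this recovery were tested on simulated data. The simulated backgrounds all lay above the median backgrounds of normal 1 and 2 (0.144 and 0.162 reads). The simulated pileups did not reach the lowest ones in the lists, so recovery at the low end was not simulated. Python 3.11.15, pandas 2.3.3 and scipy 1.17.1 were used. No test was run, since the genes and lists were chosen with earlier results of these data known. All 10 carriers are named. Of other lists, genes with a gene-end call in both lists of a condition are named, at most 5 a list. Genes called only inside a gene, genes given as uncalled and the printed sequences were chosen after their values were seen.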

Additional observations from a re-analysis of the deposited data

How the results depend on the processing

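Under 11 alternatives the 4 counts of carriers (called in any list, in both normal lists, in both starved lists, and in both starved lists but no normal list) kept their values in 44 of 44 cases, with no gene in both normal lists and with Slc16a1 and Slc38a2 in the other 3 counts. The alternatives were gene-end windows of 500 and 5000 bp, gene ends only, −log10 q of at least 5, the best 825 peaks of each list, pileups of at least 10 reads, any overlap of the peak, and leaving out each of the 4 lists. Where a list was left out, a call in both lists of its condition meant a call in the remaining list alone. The genes were chosen for their calls, so the unchanged counts do not measure stability. The share of all genes called per list ranged from 1.80% to 7.54% over the alternatives that keep all lists. With a reciprocal overlap of 50% or summits within 200 bp the starved peaks of each gene still made 1 region. No paired analysis was possible because the counts come from no test. Pileups of 14 to 20 reads limit the precision of each peak.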

Other observations

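Some peaks near genes of these pathways fell outside the rule, and are given as values chosen after they were seen. The region 15.4 to 15.6 kb before Slc16a3 had fold enrichments of 5.40 in normal 1, 8.82 in starved 1 and 9.57 in starved 2, with pileups of 6, 10 and 11 reads, and no peak in normal 2. On the side of lower coordinates of Gclc, the catalytic subunit of glutathione synthesis, both starved lists had a peak with its summit 3799 and 3732 bp from the gene (10.04 and 10.2; pileups of 14 and 17 reads), and neither normal list did. Past the far end of Gpi1, an enzyme of glycolysis on the minus strand, all 4 lists had a peak with its summit between 4666 and 4837 bp from the gene, with 4.63 and 5.40 in normal 1 and 2 and 8.03 and 10.2 in starved 1 and 2. This region lies within 1000 bp of, or inside, Pdcd2l. Which genes these regions act on was not tested.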
